A study of Mus musculus with 6 samples.

Results

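The regions described here lie at 8 genes that encode proteins of endothelial cell junctions and of the endothelial cell surface or its matrix, namely Cdh5, Cldn5, Esam, Icam2, Emcn, Egfl7, Mmrn2 and S1pr1. The assay was ATAC-seq, where a transposase cuts accessible chromatin and tags the cut ends for sequencing, and the cells were endothelial cells isolated from mouse lung. The WT group holds 3 libraries labelled Cre-negative and the CSE-KO group 3 libraries labelled Cre-positive and as a knockout of CSE. CSE is cystathionine gamma-lyase, the cysteine-producing enzyme encoded by Cth. The sources used here do not give the promoter that drives Cre, the mouse strain or the age. Which tissues of the mice lost the enzyme is therefore not known here. Cre and the loss of the enzyme cannot be told apart in this design, and nothing states that the libraries of a group came from separate animals, so each p-value reflects how far these libraries scatter, which may be technical.

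The authors' table holds 58172 regions with 1 value per library. A region was taken where the table names one of the 8 genes, which gave 13 regions, or where the table names no gene and the nearest protein-coding start site of the table within 100 kb is that of one of the 8 genes, which gave 47. This made 60 regions, all of which passed the minimum mean value of 5. A promoter region has its centre within 1 kb of the assigned start site, and there were 7 of these, 1 for each gene but Icam2. The other 53 are called distal. S1pr1 had 19 regions, more than 99.9% of the 12574 genes with a symbol and a region, Cdh5 and Cldn5 had 9 each, Emcn had 8, Egfl7 6, Mmrn2 4, Icam2 3 and Esam 2. The median gene had 2. Distance alone says nothing about which gene a region controls.

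Neighbouring endothelial cells are held together by adherens junctions, built on VE-cadherin, and by tight junctions, built on claudins and immunoglobulin-like adhesion proteins, and the opening and closing of these junctions sets how leaky a vessel is. Sphingosine 1-phosphate, a lipid carried in blood, acts through its receptor S1P1 to stabilise VE-cadherin contacts and to restrain sprouting. In the lung, where the capillary wall is thin, these proteins keep fluid out of the air spaces, and their genes are widely used to recognise endothelium. Open distal DNA near a gene can mark an enhancer, a switch that acts on a promoter over a distance.

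The RefSeq table (GRCm38.p6, the sequence of mm10) gives 3 start sites for Egfl7. Its promoter region, on chromosome 2 from 26580831 to 26581145, covers the first of these starts, although it lies 974 bp inside the gene by the authors' start site. The 250 bases before that start, and those before the second start, are shown because the first lies within the region that fell and the second holds the only ETS match in the windows searched. Promoter sequences were matched for 3 of the 8 genes (Cldn5, Egfl7 and Emcn), and the sequence of Cldn5 is given beside them as a promoter that was not called. All are on the plus strand and run 5′ to 3′, and capitals mark a motif match.
Egfl7 first start, chr2:26580833-26581082: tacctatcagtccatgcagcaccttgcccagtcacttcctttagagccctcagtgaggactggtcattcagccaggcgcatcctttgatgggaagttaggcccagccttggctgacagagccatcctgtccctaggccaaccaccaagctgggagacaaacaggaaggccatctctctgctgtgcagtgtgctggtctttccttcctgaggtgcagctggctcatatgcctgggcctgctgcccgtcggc
Egfl7 second start, chr2:26583615-26583864: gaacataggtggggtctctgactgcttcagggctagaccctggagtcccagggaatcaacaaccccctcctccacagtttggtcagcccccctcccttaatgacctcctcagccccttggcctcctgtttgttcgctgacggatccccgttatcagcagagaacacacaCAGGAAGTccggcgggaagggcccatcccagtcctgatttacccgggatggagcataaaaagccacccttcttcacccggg
Cldn5, chr16:18776597-18776846: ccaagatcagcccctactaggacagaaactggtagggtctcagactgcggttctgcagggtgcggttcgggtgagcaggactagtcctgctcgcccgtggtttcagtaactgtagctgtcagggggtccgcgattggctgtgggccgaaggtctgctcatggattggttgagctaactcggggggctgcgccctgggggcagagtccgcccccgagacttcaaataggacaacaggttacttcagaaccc

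The letters searched on both strands were CCGGAAGT and CAGGAAGT for ETS factors, which many endothelial genes need. For FOX factors TGTTTAC was searched, and for SOX factors ACAATG as well as ACAAAG. The GATA pattern was AGATAA. For AP-1 the pattern was TGANTCA, where N is any base. KLF and SP factors were searched as GGGGCGGG, and the TATA box as TATAAA. The first Egfl7 window, the Cldn5 window and the Emcn window held none of them. The second Egfl7 window held CAGGAAGT, starting 81 bases before the start, as did 2.69% of the 32851 promoter windows searched. The third Egfl7 window held ACAAAG (16.5% of all windows) and GGGGCGGG at 3 places, of which the nearest pair overlaps (15.0% of all windows). A match describes the letters only. No region of the 60 lay over the second or the third window, and neither did any other region of the authors' table.

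The label of the cells and the label of the groups were read against the data first. The WT libraries had 195, 157 and 167 at the region over the Cth start site and the CSE-KO libraries 11, 6 and 2, so no library went against its label. Promoter regions of other endothelial genes had values above 0 in every library, from 147 to 290 at Tek, the angiopoietin receptor, 151 to 283 at Kdr, the main VEGF receptor, and 54 to 170 at Tie1, a relative of Tek, down to 26 to 51 at Erg and 14 to 54 at Ets1, both ETS factors. Over all promoter regions, 5.23% were called higher in CSE-KO and 3.29% lower. Those of Kdr, Tek and Fli1 were called higher in CSE-KO (adjusted p = 0.0268, 0.038 and 0.0343 by limma) and that of Tie1 lower (0.00942). Those of Spi1, a myeloid factor, with 91 to 194, and of Cd68, a macrophage gene, with 75 to 106, were open as well, and Epcam, an epithelial adhesion gene, had 22 to 57. Other epithelial promoters had 95 to 137 at Foxj1, 18 to 37 at Hopx and 3 to 13 at Krt18. Mural and fibroblast promoters had 82 to 124 at Kcnj8, 61 to 83 at Pdgfrb and 56 to 163 at Col1a1. Myh11 had 18 to 45 and Acta2 17 to 37. Values at Foxj1, Kcnj8, Pdgfrb and Col1a1 were thus above those at Erg and Ets1. No region was assigned to the endothelial markers Pecam1 and Vwf. Deposited values summed to between 5242490 and 5368491 in WT and between 5437296 and 5547417 in CSE-KO. Whole numbers missing among the low CSE-KO values put 1 read at 1.54 to 1.64 units there, which gives about 3320000 to 3610000 reads in regions, against at least 5240000 in each WT library. The spread between CSE-KO libraries was also wider (residual SD 0.481 against 0.306 on the log2 scale). The part of depth in the results below was not tested.

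Across the 60 regions, 12 distal regions at Cdh5, Cldn5, Egfl7, Emcn, Mmrn2 and S1pr1 and the promoter region of Egfl7 were lower in CSE-KO, by 1.61-fold to 3.4-fold, and no region at Esam or Icam2 was called. By limma on log2(value + 1), with Benjamini-Hochberg adjustment over all 58129 tested regions at 0.05, 13 of 60 regions (21.7%) were called lower in CSE-KO, where the background over all tested regions is 9.6% (17.3% in either direction). None was called higher, where the background is 7.7%, while 7 had an unadjusted p under 0.05 upward and 24 downward (16.3% and 17.9% of all tested regions). Of the 53 distal regions 12 (22.6%) were called lower and 0 higher, beside 11.5% and 8.43% of all distal regions (19.9% in either direction). Of the 7 promoter regions 1 was called lower and 0 higher, beside 3.29% and 5.23% of all promoter regions (8.52% in either direction). By unadjusted p, 4 distal members were higher and 23 lower, beside 16.4% and 20.9% of all distal regions, and 3 promoter members were higher and 1 lower, beside 16.1% and 7.82% of all promoter regions. The groups did not overlap at 26 regions with CSE-KO lower (43.3%, background 20.5%) and at 9 with CSE-KO higher (15.0%, background 19.0%). The median log2 change of the members was 0.34 at promoters and -0.32 at distal regions, beside 0.11 and -0.06 over all tested regions. For the endothelial markers outside the 8 genes, counted below, these medians were 0.01 and -0.38. The lower distal median was thus not particular to the 8 genes. With only the 13 member regions that carry a deposited symbol, 2 were called lower and the distal median of the members turned to 0.15. The genes were known from earlier results of these data to show lower distal values, so these shares are descriptions. Leaving out WT replicate 1, 2 or 3 reduced the 13 lower calls to 4, 4 or 3, and limma's trend and robust options raised them to 21 and gave 5 higher calls.

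**Figure D1:**
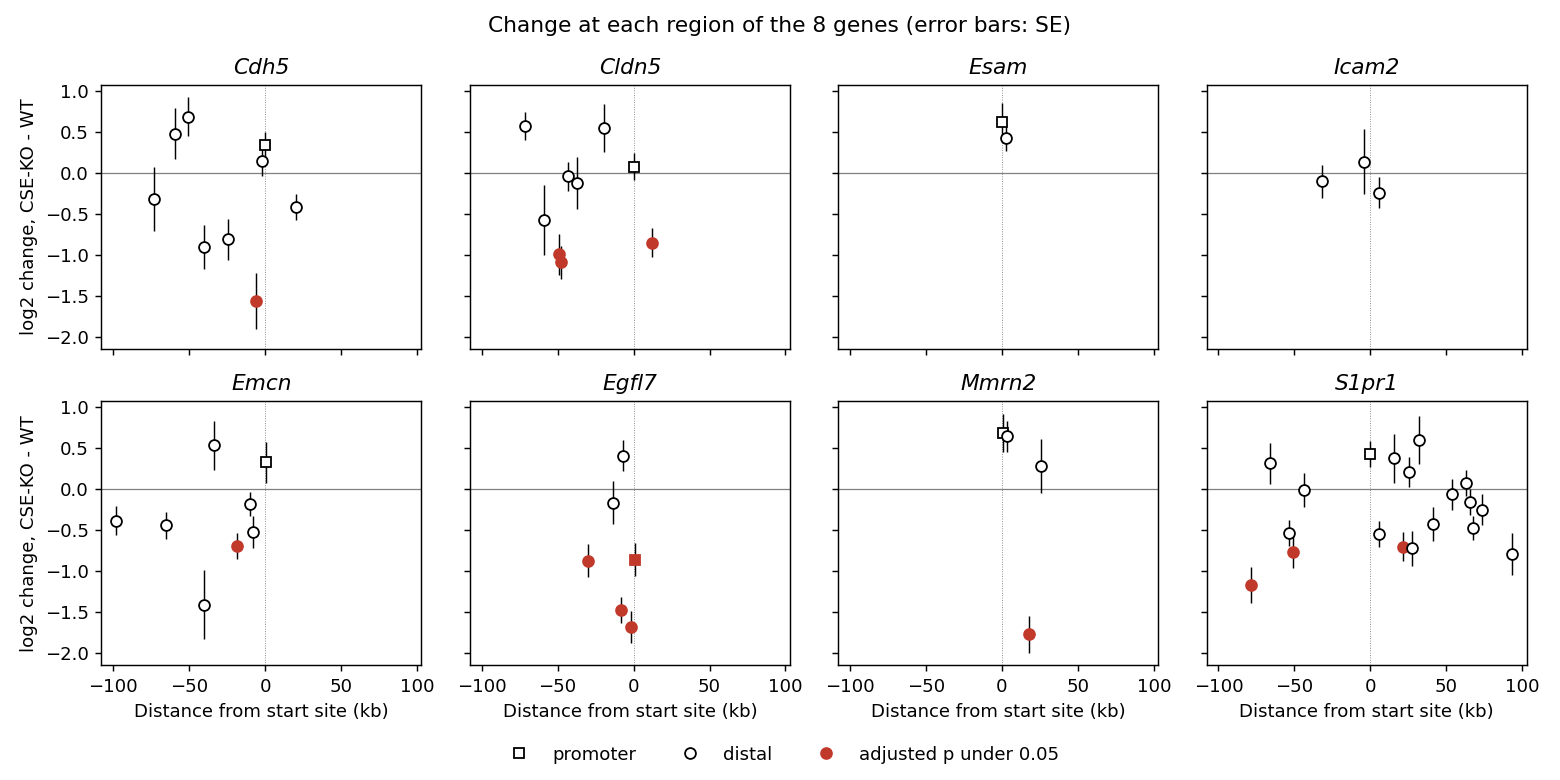
Log2 change (CSE-KO minus WT, log2(value + 1) scale, error bars SE) of each of the 60 regions against its distance from the assigned start site in kb, negative upstream, 1 panel per gene. The 13 filled symbols, all below 0, are the regions called lower. Of the 7 promoter squares 6 lie above 0, as do 8136 of all 13246 promoter regions tested.

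Summed over their distal regions, 5 of the genes had every CSE-KO library below every WT library. The share of all genes whose distal sums were apart in this way was not computed. Among single distal regions of the whole set, 23.0% had every CSE-KO library below every WT library. That share is for single regions and cannot be set against sums over several regions. The distal sums of S1pr1 were 2185, 2237 and 2096 in WT, against 1632, 1671 and 1624 in CSE-KO. Cdh5 had 1061, 1010 and 975 against 716, 710 and 776. Egfl7 had 835, 915 and 840 against 464, 496 and 548. These sums show the widest relative gap at Egfl7, and the groups were also apart at Emcn (766 to 794 against 586 to 606) and, more narrowly, at Cldn5 (1085 to 1242 against 881 to 1052). Esam went the other way, with 163 to 188 against 216 to 249 in its only distal region, and the groups overlapped at Icam2 (214 to 258 against 190 to 252) and Mmrn2 (116 to 149 against 135 to 147).

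Cdh5 encodes VE-cadherin, the cadherin that joins endothelial cells at adherens junctions. Its promoter region, on chromosome 8 from 104101370 to 104101886 (mm10) centred 3 bp from the start, had 166, 163 and 160 in WT against 221, 214 and 187 in CSE-KO. Every CSE-KO library was above every WT library, but the region was not called (log2 change 0.34 ± 0.16 (SE), adjusted p = 0.172 by limma). The region 5.77 kb upstream (104095587 to 104096128) had 154, 149 and 192 in WT against 34, 54 and 89 in CSE-KO. The groups did not overlap and the region was called lower (165 ± 23.5 against 59 ± 27.8, SD, n = 3 each; 2.96-fold, log2 change -1.56 ± 0.34 (SE), adjusted p = 0.0236 by limma). This call ended without any 1 WT library or without CSE-KO replicate 2, with adjusted p by limma between 0.054 and 0.0861 (0.0001 to 0.0861 over 16 alternatives).

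The other Cdh5 regions were not called in the main test. The strongest of them, inside the gene 20.2 kb downstream of the start, had 606, 581 and 504 in WT against 439, 434 and 395 in CSE-KO (log2 change -0.41 ± 0.16 (SE), adjusted p = 0.123 by limma). Regions 24.4 kb and 40.1 kb upstream also had all CSE-KO libraries below all WT libraries, with log2 changes of -0.81 and -0.90 (adjusted p = 0.0687 and 0.0602 by limma). With trend and robust options the regions at 20.2, 24.4 and 40.1 kb were called lower (adjusted p = 0.00559, 0.0436 and 0.0098 by limma). With a minimum mean of 20 those at 24.4 and 40.1 kb were (0.0429 and 0.0361), and with a pseudocount of 5 that at 40.1 kb (0.0413). The remaining 4, between 2.26 and 72.9 kb upstream, had log2 changes of -0.32 to 0.69. The region 50.6 kb upstream was the one of these whose groups did not overlap, with CSE-KO higher.

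Cldn5 encodes claudin-5, the principal claudin of endothelial tight junctions. The promoter region, on chromosome 16 from 18776030 to 18777649 and the widest of the 60 at 1619 bp, had 296, 255 and 281 in WT against 332, 265 and 282 in CSE-KO. The groups overlapped (log2 change 0.08 ± 0.17 (SE), adjusted p = 0.791 by limma). A pair of neighbouring regions 47.7 kb upstream (18728964 to 18729288) and 48.8 kb upstream (18727883 to 18728228) was called lower. The first had 92, 67 and 71 against 39, 37 and 30, a 2.13-fold fall (log2 change -1.09 ± 0.20 (SE), adjusted p = 0.0137 by limma). The second had 65, 53 and 58 against 29, 40 and 21 (log2 change -0.99 ± 0.25 (SE), adjusted p = 0.0378 by limma). In both, no CSE-KO library reached the lowest WT library.

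Downstream of Cldn5, the region at 12.4 kb (18788710 to 18789730) was called lower with 405, 371 and 358 against 211, 178 and 243 (1.8-fold, log2 change -0.85 ± 0.18 (SE), adjusted p = 0.022 by limma). Its centre lies inside the RefSeq span of Cdc45, a replication gene, so its assignment to Cldn5 rests on distance alone. A region of similar strength 43.4 kb upstream had 375, 316 and 306 against 353, 282 and 333 (log2 change -0.04 ± 0.18 (SE), adjusted p = 0.889 by limma), with overlapping groups. The region 71.3 kb upstream had 174, 141 and 166 against 240, 225 and 251, with CSE-KO higher in every library, and missed the call (log2 change 0.58 ± 0.17 (SE), adjusted p = 0.0535 by limma). The remaining 3 regions, 19.4, 37.5 and 58.7 kb upstream, had overlapping groups and log2 changes of 0.55, -0.12 and -0.57, and the first was called higher without CSE-KO replicate 2 (adjusted p = 0.0423 by limma). The region 71.3 kb upstream was called higher with a pseudocount of 5, a minimum mean of 20, trend and robust options, equal totals or quantile normalization (adjusted p by limma 0.00428 to 0.0492). The calls at 48.8 and 12.4 kb ended without any 1 WT library (adjusted p by limma 0.0921 to 0.124 and 0.0708 to 0.0851), the former also without CSE-KO replicate 1 or 3 (0.0724 and 0.0639), and that at 47.7 kb without WT replicate 1 or 3 (0.0547 and 0.0514). Over 16 alternatives adjusted p ran from 0.00994 to 0.124 at 48.8 kb, from 5.64e-05 to 0.0851 at 12.4 kb and from 0.00161 to 0.0547 at 47.7 kb.

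Esam and Icam2 encode immunoglobulin-type adhesion proteins, the first at tight junctions and the second a ligand for leukocyte integrins. The Esam promoter region, on chromosome 9 from 37527775 to 37528066, had 31, 41 and 33 in WT against 69, 41 and 57 in CSE-KO. CSE-KO replicate 2 was level with the highest WT library (log2 change 0.63 ± 0.23 (SE), adjusted p = 0.106 by limma), and without that library the region was called higher (adjusted p = 0.0477). Inside the gene 2.72 kb from the start (37530331 to 37531269) the values were 188, 163 and 176 against 245, 216 and 249, higher in every CSE-KO library and not called (log2 change 0.43 ± 0.16 (SE), adjusted p = 0.109 by limma). With trend and robust options this region was called higher (adjusted p = 0.0249 by limma). At neither Esam region was any CSE-KO library below the lowest WT library.

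Of the 3 Icam2 regions on chromosome 11 none was called and all had overlapping groups. The region inside the gene 5.45 kb from the start had 171, 128 and 127 in WT against 131, 109 and 118 in CSE-KO. The region 3.97 kb upstream had 51, 46 and 51 against 90, 64 and 28, so the CSE-KO libraries fell on both sides of WT. The region 31.9 kb upstream, inside the neighbouring gene Ern1, had 36, 46 and 36 against 31, 35 and 44. Their log2 changes were -0.24, 0.14 and -0.10 (adjusted p = 0.41, 0.829 and 0.754 by limma).

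Emcn encodes endomucin, a heavily glycosylated protein that coats the surface of venous and capillary endothelium and hinders leukocyte attachment. Its promoter region, on chromosome 3 from 137341116 to 137341799, had 54, 88 and 78 in WT against 93, 110 and 72 in CSE-KO, with overlapping groups (log2 change 0.33 ± 0.25 (SE), adjusted p = 0.398 by limma). All 7 distal regions lay upstream, and 6 had every CSE-KO library below every WT library, beside 23.0% of all distal regions. The region 18.5 kb upstream (137322273 to 137322851) was called lower, with 186, 182 and 169 against 114, 116 and 102 (1.61-fold, log2 change -0.69 ± 0.16 (SE), adjusted p = 0.0265 by limma). That call ended without any 1 WT library or without CSE-KO replicate 3 (adjusted p by limma 0.055 to 0.097, and 0.00211 to 0.097 over 16 alternatives). The uncalled 5 had log2 changes of -0.18 to -1.41, from the strong region 9.81 kb upstream (296, 275 and 288 against 248, 250 and 262) to the weak one 40.3 kb upstream (16, 17 and 14 against 2, 8 and 8), which was called without CSE-KO replicate 1 (adjusted p = 0.0263 by limma). The region 40.3 kb upstream was also called lower with a pseudocount of 5 or library weights (adjusted p = 0.0312 and 0.0414 by limma). That at 65.4 kb was called lower with trend and robust options (0.0499). The weakest, 33.5 kb upstream, had 6, 8 and 11 against 15, 8 and 15.

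Egfl7 encodes a secreted protein with EGF-like domains that endothelial cells deposit in their matrix and that guides tube formation. Its gene also carries miR-126, a microRNA of endothelial cells. The 6 Egfl7 regions on chromosome 2 include 4 of the 13 lower calls, where 9.6% of all tested regions were called lower. The promoter region of Egfl7 had 136, 147 and 149 in WT against 70, 70 and 100 in CSE-KO. It was the only promoter of the 7 that was called, and it fell 1.81-fold (144 ± 7 against 80 ± 17.3, SD, n = 3 each; log2 change -0.86 ± 0.20 (SE), adjusted p = 0.0274 by limma). Just upstream, 1.66 kb from the start (26577932 to 26578775), the values were 243, 318 and 269 against 70, 100 and 89. This region fell 3.19-fold (log2 change -1.68 ± 0.20 (SE), adjusted p = 0.00481 by limma), and its highest CSE-KO library stood far below its lowest WT library. The region 8.11 kb upstream (26571569 to 26572241) had 223, 225 and 195 against 70, 83 and 77, a 2.77-fold fall (log2 change -1.47 ± 0.16 (SE), adjusted p = 0.0041 by limma).

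The region 6.6 kb upstream (26573149 to 26573671), which lies between both distal falls, had 174, 133 and 151 in WT against 188, 184 and 238 in CSE-KO, higher in every CSE-KO library and not called (log2 change 0.41 ± 0.19 (SE), adjusted p = 0.176 by limma). The region 13.5 kb upstream had 35, 49 and 48 against 41, 51 and 28, with overlapping groups (adjusted p = 0.707 by limma). The region 30.0 kb upstream (26549697 to 26550425) was called lower, with 160, 190 and 177 against 95, 78 and 116 (log2 change -0.87 ± 0.20 (SE), adjusted p = 0.0267 by limma). The calls 1.66 and 8.11 kb upstream held under all 16 alternatives fitted, with adjusted p up to 0.029 and 0.0266. Those of the promoter region and at 30.0 kb ended without any 1 WT library or without CSE-KO replicate 1 or 2 (adjusted p by limma 0.0583 to 0.0964 and 0.0519 to 0.0983), and ran from 0.00137 to 0.0964 and from 0.000708 to 0.0983 over the alternatives.

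**Figure D2:**
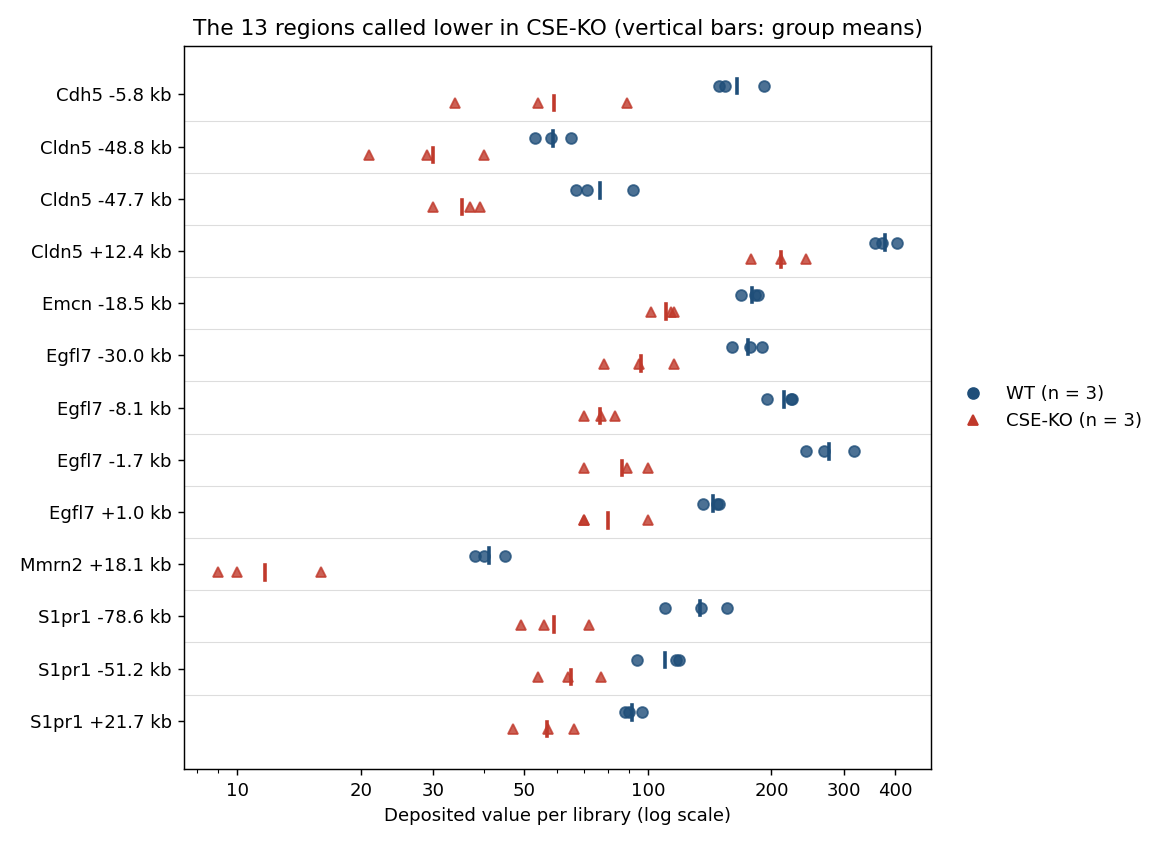
Deposited value in each library (log axis) at the 13 regions called lower, named by gene and distance from the start site in kb; circles are WT, triangles CSE-KO (n = 3 each) and vertical bars group means. In every one of the 13 the highest CSE-KO library lies below the lowest WT library. The 13 were chosen by the test on these same values, so this separation is no further evidence.

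Mmrn2 encodes multimerin-2, a matrix protein on the outer face of endothelial cells that binds the surface lectins CD93 and CLEC14A. All 4 of its regions lie inside the gene on chromosome 14. The promoter region (34376001 to 34376488) had 66, 66 and 73 in WT against 142, 116 and 82 in CSE-KO, and the region at 3.5 kb (34378696 to 34379225) had 58, 69 and 56 against 87, 115 and 89. In both, the lowest CSE-KO value exceeded the highest WT value, and neither was called (log2 changes 0.69 ± 0.23 and 0.65 ± 0.19 (SE), adjusted p = 0.0797 and 0.0534 by limma). The region 18.1 kb inside the gene (34393365 to 34393744) had 40, 45 and 38 against 16, 9 and 10. The fall was 3.4-fold (log2 change -1.77 ± 0.23 (SE), adjusted p = 0.00619 by limma), and the call held under all 16 alternatives fitted (adjusted p up to 0.0344). At 25.8 kb the values were 18, 35 and 31 against 44, 23 and 36, with overlapping groups. Within this gene the values at the start and at 18.1 kb thus differed in opposite directions, and the latter was called. Under trend and robust options both regions near the start were called higher (adjusted p = 0.0168 and 0.02 by limma), and the promoter region also without CSE-KO replicate 3 (0.0292).

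S1pr1 encodes S1P1, the main endothelial receptor for sphingosine 1-phosphate. Its promoter region, on chromosome 3 from 115714699 to 115715474, had 203, 206 and 210 in WT against 243, 297 and 297 in CSE-KO. The groups did not overlap, and the region was not called (206 ± 3.51 against 279 ± 31.2, SD, n = 3 each; log2 change 0.43 ± 0.16 (SE), adjusted p = 0.114 by limma). With trend and robust options this promoter region was called higher (adjusted p = 0.0194 by limma). Of the 18 distal S1pr1 regions 3 were called lower and 8 had every CSE-KO library below every WT library, beside 11.5% and 23.0% of all distal regions. With trend and robust options the regions 53.9 kb upstream and 5.8, 27.5 and 67.8 kb downstream were also called lower. A minimum mean of 20 did so for the first 3 of these and for the region 93.3 kb downstream. The called region 78.6 kb upstream (115793405 to 115793979) had 110, 156 and 135 against 49, 72 and 56, a 2.25-fold fall (log2 change -1.17 ± 0.22 (SE), adjusted p = 0.0148 by limma). The called region 51.2 kb upstream (115766077 to 115766491) had 94, 119 and 117 against 77, 54 and 64 (log2 change -0.76 ± 0.20 (SE), adjusted p = 0.0419 by limma). The called region 21.7 kb downstream of the start (115693008 to 115693665) had 97, 90 and 88 against 47, 66 and 57 (log2 change -0.70 ± 0.18 (SE), adjusted p = 0.0411 by limma).

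The strongest S1pr1 regions had lower values in CSE-KO and did not pass the test, though both passed with trend and robust options (adjusted p = 0.00159 and 0.00386 by limma). The region 5.8 kb downstream of the start had 459, 409 and 379 in WT against 302, 290 and 262 in CSE-KO (log2 change -0.54 ± 0.16 (SE), adjusted p = 0.0625 by limma). The region 67.8 kb downstream had 391, 409 and 399 against 284, 313 and 269 (log2 change -0.47 ± 0.15 (SE), adjusted p = 0.0777 by limma). Both pairs of groups were apart. The region at 62.7 kb, by contrast, had 128, 116 and 108 against 114, 133 and 126. The other distal regions had log2 changes of -0.79 to 0.60. The calls at 51.2 and 21.7 kb ended without any 1 WT library or CSE-KO replicate 3, the former also without CSE-KO replicate 2 and the latter without CSE-KO replicate 1 (adjusted p by limma 0.0776 to 0.136 and 0.0715 to 0.132), and that at 78.6 kb ended without WT replicate 2 or 3 (0.0621 and 0.0613). Over 16 alternatives these ran from 0.00724 to 0.136, from 0.0152 to 0.132 and from 0.000184 to 0.0621.

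The promoter regions were set side by side by their values per kb of region width. In WT the order was Egfl7 (459 ± 22.3 per kb, SD, n = 3), Cdh5 (316 ± 5.81), S1pr1 (266 ± 4.53), Cldn5 (171 ± 12.8), Mmrn2 (140 ± 8.3), Esam (120 ± 18.2) and Emcn (107 ± 25.6). The last 3 are neighbours within their spread. In CSE-KO the order was Cdh5 (402 ± 34.8 per kb), S1pr1 (360 ± 40.2), Egfl7 (255 ± 55.2), Mmrn2 (233 ± 61.8), Esam (191 ± 48.3), Cldn5 (181 ± 21.5) and Emcn (134 ± 27.9). Egfl7 went from the highest level to a place level with Mmrn2 within the spread. The width of a region comes from the authors' peak set and differs from 291 bp at Esam to 1619 bp at Cldn5, which bears on these levels. The promoter regions whose 6 values lay closest to those of the Cdh5 promoter on the log2(value + 1) scale, among 7262 promoters of similar mean, were those of Snapin, Kdelr1 and Hilpda (Euclidean distance 0.165, 0.173 and 0.196 over 6 libraries).

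**Figure D3:**
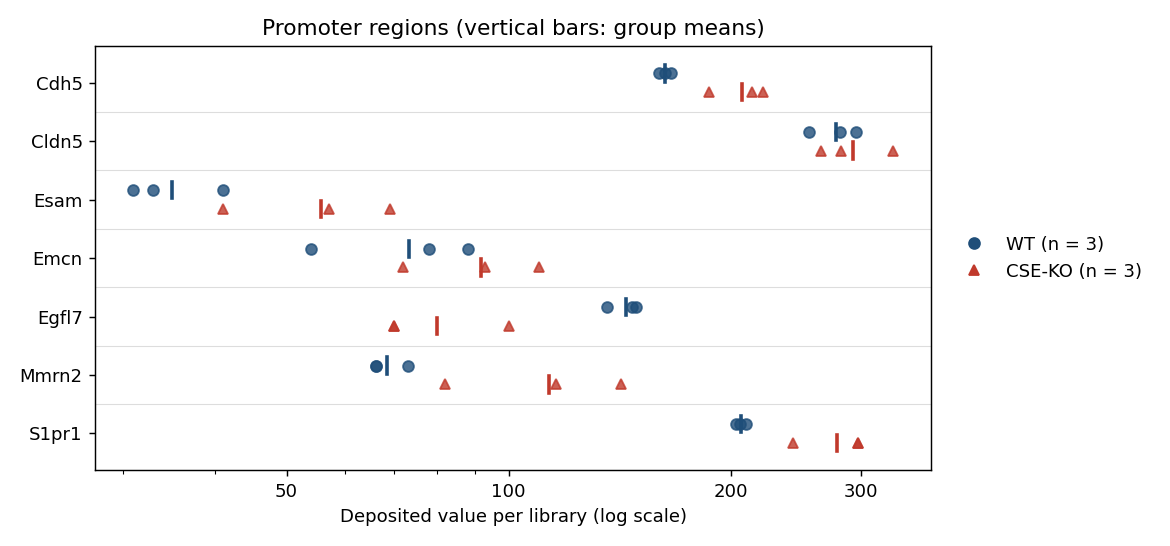
Deposited value in each library (log axis) at the 7 promoter regions; circles are WT, triangles CSE-KO (n = 3 each) and vertical bars group means. At Egfl7 the CSE-KO libraries, 70 to 100, lie below the WT libraries, 136 to 149, while at Cdh5, Mmrn2 and S1pr1 they lie above. Over all promoter regions, 12.1% had every CSE-KO library below every WT library, and 23.9% had every one above.

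The distal members were split by strength and by distance. Of the 40 distal members with a mean over all libraries above 41.3, the median of all distal regions, 11 (27.5%) were called lower, and of the 13 below it 1 was. Over all distal regions the same shares were 15.1% and 7.87%. By distance, 3 of 12 members at 1 to 10 kb, 7 of 24 at 10 to 50 kb and 2 of 17 at 50 to 100 kb were called lower (25%, 29.2% and 11.8%), beside 10.2%, 12% and 12.7% of all regions at those distances. Beyond 50 kb the share of the members was therefore near the background. Of the 53 distal members 45 lie between RefSeq protein-coding genes, 6 inside their own gene and 2 inside another.

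Other genes of the same pathways were counted from 4 lists. Partners of adherens and tight junctions, 30 of 33 genes with 151 regions, had 14 regions lower and 2 higher (9.27% and 1.32%), and median log2 changes of 0.02 at promoters and -0.21 at distal regions. Regions near Jup, the junction protein plakoglobin, Ctnna1, the alpha-catenin that links cadherins to actin, and Cdh13, the cadherin without a cytoplasmic tail, fell 4.2-fold, 2.62-fold and 2.26-fold. Endothelial surface glycoproteins, 22 of 25 genes with 105 regions, had 12 lower and 6 higher (11.4% and 5.71%). Regions near Cd34 and Podxl, both sialomucins, fell 6.61-fold and 3.68-fold, while a region near Thbd, the thrombin receptor thrombomodulin, rose 2.39-fold. These shares of lower calls are close to the background of 9.6%.

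Genes of sphingosine 1-phosphate signalling, 19 of 20 with 77 regions, had 12 lower and 4 higher (15.6% and 5.19%), and median log2 changes of 0.28 at promoters and -0.17 at distal regions. A region 14.4 kb from Spns2, the endothelial exporter of the lipid, had 39, 47 and 45 in WT against 10, 11 and 7 in CSE-KO and fell 4.37-fold. Regions near Gna12, a G-protein subunit, and Plpp1, a lipid phosphatase, fell 3.26-fold and 2.66-fold. Partners and relatives of multimerin-2 and EGFL7, 9 of 13 genes with 50 regions, had 9 lower and 3 higher (18% and 6.0%). Regions near Notch4 and Emilin1 fell 2.83-fold and 2.46-fold, and a region near Itgb3, the integrin beta-3 subunit, rose 2.73-fold. The adjusted p of the named regions of the 4 lists, by limma, ran from 0.00307 to 0.0129.

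**Figure D4:**
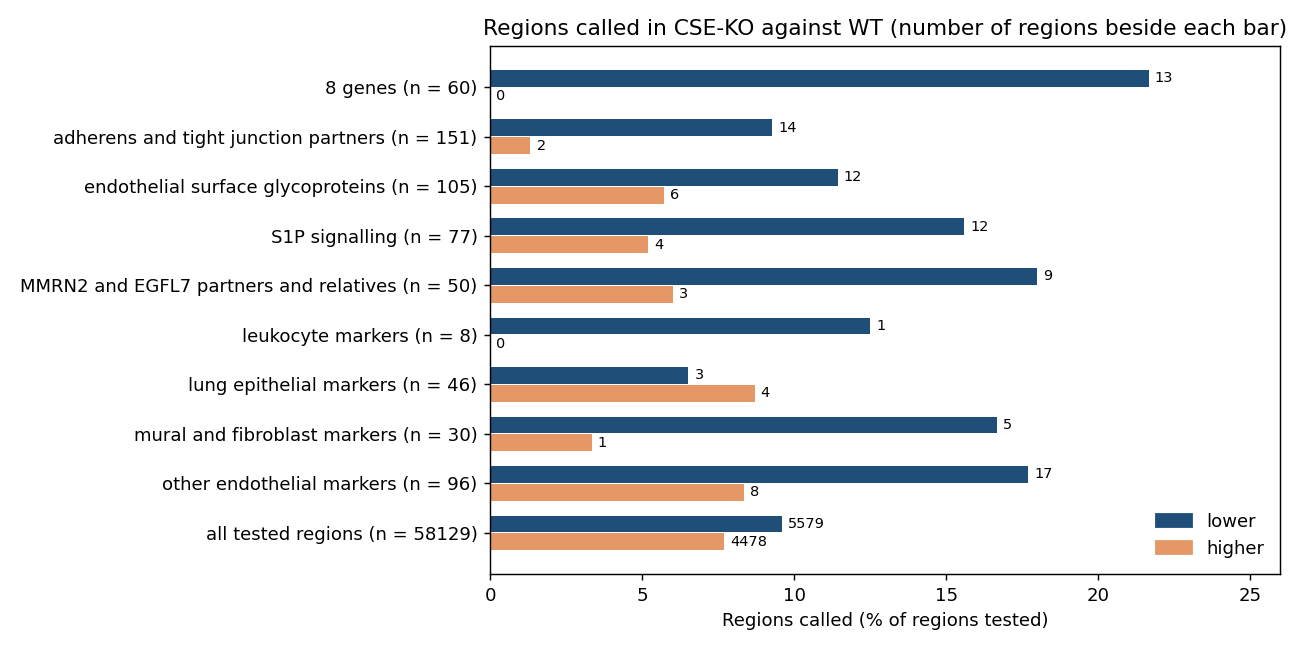
Share of tested regions called lower (dark) and higher (light) in CSE-KO, in percent, for the 8 genes, the 4 lists of related genes, the 4 marker lists and all tested regions, with the number of regions beside each bar. The 8 genes have 13 of 60 lower and 0 higher, and all tested regions have 9.6% lower and 7.7% higher.

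Markers of cell types were counted beside these groups. Over all tested regions, 9.6% were called lower and 7.7% higher. Other endothelial markers, 13 of 15 with 96 regions, had 17 lower and 8 higher (17.7% and 8.33%). They summed to 8237 to 8307 in WT and 6572 to 6972 in CSE-KO. Leukocyte markers had a region for 5 of 15 genes, with 1 of 8 regions lower (12.5%), the promoter of Spi1, and 0 higher. They summed to 552 to 613 against 456 to 488. Lung epithelial markers had a region for 10 of 15 genes, with 3 of 46 regions lower and 4 higher (6.52% and 8.7%). They summed to 3275 to 3479 against 3086 to 3225. Mural and fibroblast markers had a region for 8 of 15 genes, with 5 of 30 lower and 1 higher (16.7% and 3.33%). They summed to 1753 to 1870 against 1631 to 1699. The share of lower calls was thus similar for endothelial markers and for mural and fibroblast markers. No marker region was at 0 in every library. At promoters alone the sums for the endothelial markers were 1293 to 1434 in WT and 1426 to 1572 in CSE-KO. Of their 12 promoter regions 3 were called higher and 1 lower, beside 5.23% and 3.29% of all promoter regions. For the leukocyte markers the promoter sums were 247 to 284 against 175 to 186. They were 172 to 208 against 152 to 221 for the epithelial markers, with Epcam called higher, and 292 to 328 against 357 to 397 for the mural and fibroblast markers, with Col1a1 called higher. The 2 regions of smallest p lay near Spi1 and Cd4 for leukocytes, Hopx and Foxa2 for epithelium, Postn and Kcnj8 for mural cells and fibroblasts, and Flt1 and Ets1 for endothelium, and all but Cd4 (adjusted p = 0.0617 by limma) were called lower. In bulk samples, fewer cells of a type and less open DNA per cell cannot be told apart, and the part of cell composition in the values of the 8 genes was not tested.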

How the data were processed

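ATAC-seq was run on 3 WT and 3 CSE-KO samples of isolated lung endothelial cells. The authors deposited 1 table of 58172 regions, treated here as a score: whole numbers that look like read counts divided by a library factor and rounded, with no unit in the header. The tools listed in the submitters' processing notes are DESeq2 1.26.0, Picard 3.1.1, STAR 2.7.3a and Trimmomatic 0.39, with mm10 as the build. The sources used here give neither their roles nor the peak caller or any Tn5 shift. Because the values are scaled, no count model was run. Distances to start sites are the authors' where the table gives them, per the file headers, and were computed from the table's start sites otherwise.

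Group and replicate came from the titles. Values were tested as log2(value + 1) with limma 3.58.1 (R 4.3.3), trend and robust off, for 58129 regions with a mean of at least 5, two-sided, adjusted at 0.05. Fold changes are on that scale, which understates weak regions. The scripts were tested on simulated data. Variance beyond read counting was set equal in both groups there and was not fitted to these libraries. That test therefore does not give the error rate of the calls here. Alternatives were other pseudocounts (0.5 and 5), filters, scalings, library weights, a replicate block, other assignment rules and leaving out each library. Every region of the 8 genes was reported, and from each related list the 3 called regions of smallest p, 1 per gene. The members and lists were chosen with earlier results of these data known. No 2 libraries were identical (Pearson 0.902 to 0.96 within groups on log2 values). Sequences are from RefSeq (GRCm38.p6).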

Additional observations from a re-analysis of the deposited data

How the results depend on the processing

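All 13 lower calls were made again with pseudocounts of 0.5 and 5, both filters on low values, library weights, trend and robust options and 3 other scalings, and 3 of them under all 16 alternatives fitted. The count of lower calls moved to 21 with trend and robust options, 8 with start sites within 25 kb and 2 with deposited symbols only, which leave fewer regions. Higher calls, 0 in the main test, numbered 2 with a pseudocount of 5, a minimum mean of 20, equal totals without regions over 10000 or quantile normalization, near Cldn5 (71.3 kb upstream) and Mmrn2 (3.5 kb), and 5 with trend and robust options, which give 7185 higher calls over all regions against 4478. The cause was not tested. The distal median was -0.41 with start sites within 25 kb and reversed to 0.15 with deposited symbols only. With the replicate block 6 lower calls were left, without those of the Egfl7 promoter region and at 30.0 kb, Cldn5 at 48.8 and 12.4 kb, Emcn at 18.5 kb and S1pr1 at 51.2 and 21.7 kb (adjusted p by limma 0.0561 to 0.0968), and 2594 higher and 3419 lower over all regions; deviations of same-numbered libraries correlated at no more than 0.1 (-0.00593, -0.0105 and 0.0105; 2 of 6 libraries correlated best with their own number), so the numbers were not taken as pairs. Leaving out 1 library at a time gave 3 to 10 lower and 0 to 2 higher calls at the 8 genes, 1601 to 3581 higher and 1852 to 5337 lower over all regions, a promoter median of 0.31 to 0.43 and a distal median of -0.28 to -0.39. It turned the sign of 9 uncalled regions, whose log2 changes ran over these fits from -0.61 to 0.04 for Cdh5 at 72.9 kb, -0.11 to 0.05 for Cldn5 at 43.4 kb, -0.47 to 0.11 at 37.5 kb and -0.02 to 0.14 at its promoter, -0.35 to 0.07 for Egfl7 at 13.5 kb, -0.24 to 0.01 for Icam2 at 31.9 kb and -0.21 to 0.61 at 3.97 kb, and -0.17 to 0.13 for S1pr1 at 43.6 kb and -0.17 to 0.07 at 53.9 kb. The CSE-KO libraries hold fewer reads, which limits what weak regions can show.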

Other observations

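Regions in or beside the 8 genes that the table gives to other genes were not counted above. Inside Cdh5, a pair of regions is assigned to a long noncoding RNA without a symbol. The one from 104107258 to 104107455 had 43, 47 and 33 in WT against 65, 60 and 51 in CSE-KO (adjusted p = 0.117 by limma), and the one from 104110674 to 104111365 had 200, 177 and 186 against 176, 118 and 169 (adjusted p = 0.338). A further 3 regions in or beside the far end of Cdh5 are assigned to Bean1. Their values were 27, 32 and 21 against 10, 26 and 21, then 79, 63 and 63 against 54, 55 and 61, and last 49, 54 and 54 against 31, 44 and 44, with log2 changes of -0.55, -0.26 and -0.41 (adjusted p = 0.314, 0.327 and 0.185). Just past the end of Egfl7, a region assigned to a microRNA gene (26593627 to 26594293) had 250, 228 and 221 against 234, 205 and 149 (adjusted p = 0.398). None of these was called.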
